A study of Mus musculus with 18 samples.

Results

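The genes described are those of the UDP-glucuronosyltransferases (Ugt), the cytosolic sulphotransferases (Sult) and the cytosolic and kappa-class glutathione S-transferases (Gst), followed in the mouse colon from normal mucosa through chemically induced colitis and dysplasia to carcinoma. Members were taken by symbol: every probe set annotated to exactly 1 gene whose symbol begins with Ugt1, Ugt2 or Ugt3 and a or b, with Sult and a number, or with Gst, a class letter (a, k, m, o, p, t or z) and a number. Where a gene had several such probe sets, the one with the highest mean stood for it. This gave 43 genes (10 Ugt, 13 Sult and 20 Gst) from 54 probe sets, of 18193 genes with a probe set of their own. Of the 43, 26 were bright enough to be tested (3 Ugt, 6 Sult and 17 Gst), among 12877 genes tested in all.

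Male mice of the outbred ICR stock, 6 weeks old at the start, provided colorectal tissue for 18 Affymetrix whole-genome expression arrays, 3 arrays labelled as biological replicates in each of 6 groups. Normal mucosa came on day 14 from mice that received saline and distilled water. All other mice received a single dose of 10 mg/kg azoxymethane (AOM), which causes tumours of the colon, and then dextran sulphate sodium (DSS), an irritant of the colonic lining, in the drinking water. The stages were inflamed mucosa on day 14, at the end of a DSS cycle at 2%; low grade dysplasia (LGD) on day 28, without further DSS; high grade dysplasia (HGD) on day 42, after another cycle at 1.5%; HGD with active inflammation on day 56, shortly after the last cycle at 1.5%; and carcinoma on day 140. They are called here by week: 2, 4, 6, 8 and 20. There was no group with just AOM or just DSS, and stage and age cannot be told apart after week 2, since all controls were taken on day 14. The p-values measure only the spread between these arrays.

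Conjugating enzymes make small molecules more soluble so that they can leave the cell and the body. Ugt enzymes, held in the endoplasmic reticulum, attach glucuronic acid from UDP-glucuronate. Sult enzymes, in the cytosol, attach sulphate from the donor PAPS (3'-phosphoadenosine 5'-phosphosulphate). Gst enzymes join glutathione to electrophiles such as products of lipid oxidation, and several also bind ligands or reduce peroxides. The liver is the best known site, and the absorptive cells that line the gut also carry many of them, where they meet bile acids, steroids, phenols and carcinogens from the lumen.

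Levels are given as log2(signal + 16), called the log2 level, and a change is the difference of mean log2 levels with its standard error (SE) from limma. A gene passed when its adjusted p, over all 12877 genes of a comparison, was below 0.05, and only genes that passed are said to have risen or fallen. Levels of different genes are not compared, because each probe set binds with its own strength. The 5 comparisons with normal mucosa share the same 3 control arrays. Of the 26 genes tested, 7 are read by probe sets whose suffix (s, x or a) warns of binding to more than 1 transcript (Ugt2b34, Sult1a1, Gstm1, Gstm3, Gstm6, Gstp1 and Gstz1). Where the suffix is s or x (Ugt2b34, Gstm1 and Gstm3), the signal of close relatives may be included. The a suffix of the others does not by itself speak to close relatives.

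Some arrays stand apart from the rest of their group. Normal mucosa carried epithelial genes strongly: 15 general epithelial markers had a mean log2 level of 11.25 to 11.42, and Epcam, a surface protein of epithelial cells, had 13.20. In inflamed mucosa the mean of those 15 markers lay between 6.47 and 10.00, and their median difference from normal was -1.41, -5.38 and -2.78 in replicates 1, 2 and 3, so inflamed replicate 2 held the least epithelial signal. Among the LGD arrays, 18 markers of mature colonocytes (surface absorptive cells) had median differences of -2.44, -1.03 and -0.11, and LGD replicate 2 had a 3' to 5' Gapdh log2 ratio of 1.63 against -0.08 to 0.15 on the other 17 arrays, a sign of shorter RNA. At week 8 the colonocyte medians were -0.81, -3.11 and -1.31. In tissue samples, fewer cells of a type and less RNA per cell cannot be told apart.

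The upstream DNA of 7 members is shown first because these genes lie in 2 runs of genes of these families. Whether their changes differ was not tested. In the RefSeq gene order of assembly GRCm38.p6, chromosome 5 carries a run of 13 genes from Ugt2b34 through Ugt2b1, Ugt2b35, Ugt2b36, Ugt2b5, Ugt2b37, Ugt2a3, Ugt2b38, Ugt2a1 and Ugt2a2 to Sult1b1, Sult1d1 and Sult1e1. Of its 11 members, only Ugt2b34, Ugt2b35, Sult1b1 and Sult1d1 were tested. The 250 bases before the annotated start of each read as follows, 5' to 3' on the strand of the gene, with motif matches in capitals.

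Ugt2b34 (chr5:86906938-86907187, minus strand): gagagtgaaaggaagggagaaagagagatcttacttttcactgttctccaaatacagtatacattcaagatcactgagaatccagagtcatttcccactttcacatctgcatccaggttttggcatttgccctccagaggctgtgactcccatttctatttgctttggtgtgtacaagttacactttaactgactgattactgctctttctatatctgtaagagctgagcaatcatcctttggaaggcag

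Ugt2b35 (chr5:87000610-87000859, plus strand): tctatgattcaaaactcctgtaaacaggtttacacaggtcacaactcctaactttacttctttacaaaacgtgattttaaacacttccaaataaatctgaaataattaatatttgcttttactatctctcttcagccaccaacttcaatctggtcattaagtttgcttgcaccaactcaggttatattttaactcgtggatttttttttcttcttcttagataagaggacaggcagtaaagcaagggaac

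Sult1b1 (chr5:87538196-87538445, minus strand): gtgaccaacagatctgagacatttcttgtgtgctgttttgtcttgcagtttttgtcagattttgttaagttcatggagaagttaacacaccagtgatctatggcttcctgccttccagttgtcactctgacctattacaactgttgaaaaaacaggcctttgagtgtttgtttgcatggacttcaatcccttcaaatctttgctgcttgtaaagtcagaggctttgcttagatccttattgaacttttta

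Sult1d1 (chr5:87569007-87569256, minus strand): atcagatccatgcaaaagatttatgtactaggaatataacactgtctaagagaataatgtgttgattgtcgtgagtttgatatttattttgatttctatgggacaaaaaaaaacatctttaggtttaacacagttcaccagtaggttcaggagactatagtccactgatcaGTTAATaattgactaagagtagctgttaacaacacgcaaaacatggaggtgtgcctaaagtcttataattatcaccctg

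Chromosome 3 carries a run of 7 mu-class genes in the order Gstm5, Gstm7, Gstm6, Gstm3, Gstm2, Gstm1 and Gstm4, all of them tested. Gstm3 is shown because the probe set that stood for it had the largest change of this run, though its other probe set had less than Gstm6 and Gstm1, and Gstm5 and Gstm7 because they read above normal mucosa at later stages.

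Gstm5 (chr3:107895604-107895853, plus strand): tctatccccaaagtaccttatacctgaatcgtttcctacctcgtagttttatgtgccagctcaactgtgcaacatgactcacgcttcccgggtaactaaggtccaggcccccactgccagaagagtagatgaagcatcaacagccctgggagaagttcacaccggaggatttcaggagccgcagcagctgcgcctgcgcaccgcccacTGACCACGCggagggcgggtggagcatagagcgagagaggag

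Gstm7 (chr3:107931818-107932067, minus strand): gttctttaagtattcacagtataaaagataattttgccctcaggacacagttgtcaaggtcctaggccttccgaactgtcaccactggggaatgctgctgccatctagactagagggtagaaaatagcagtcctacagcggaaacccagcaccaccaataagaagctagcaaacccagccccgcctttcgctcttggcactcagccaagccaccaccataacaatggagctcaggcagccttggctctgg

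Gstm3 (chr3:107969175-107969424, minus strand): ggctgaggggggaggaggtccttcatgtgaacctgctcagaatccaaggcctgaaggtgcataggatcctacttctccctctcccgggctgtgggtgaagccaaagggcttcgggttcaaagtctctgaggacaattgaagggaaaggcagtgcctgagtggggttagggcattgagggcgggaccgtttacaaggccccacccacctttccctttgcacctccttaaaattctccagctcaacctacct

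The capitals mark the core of the antioxidant response element, TGACNNNGC, the DNA element through which the factor Nrf2 acts, in the window of Gstm5, 42 bases before the start. In the window of Sult1d1 they mark GTTAAT, the core letters of the site bound by the hepatocyte nuclear factor HNF1, 79 bases before the start. Gstm7 has another annotated start, whose window is not printed and holds TGACAAAGC, a match to the antioxidant element, 129 bases before that start. Both motifs were sought on both strands, together with CAAAGTCCA, a form of the site bound by HNF4A. RefSeq windows existed for 24 of the 26 tested members (33 windows, since some genes have several annotated starts; Gsta4 and Gstt2 were not matched), and for genes with several starts the printed window is that of the most upstream one. Across 32851 such windows of all genes, TGACNNNGC occurred in 10.2%, GTTAAT in 6.43% and CAAAGTCCA in 0.384%. Of the 33 windows of members they occurred in 3, 4 and 0. A match describes letters only and does not show binding.

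**Figure D1:**
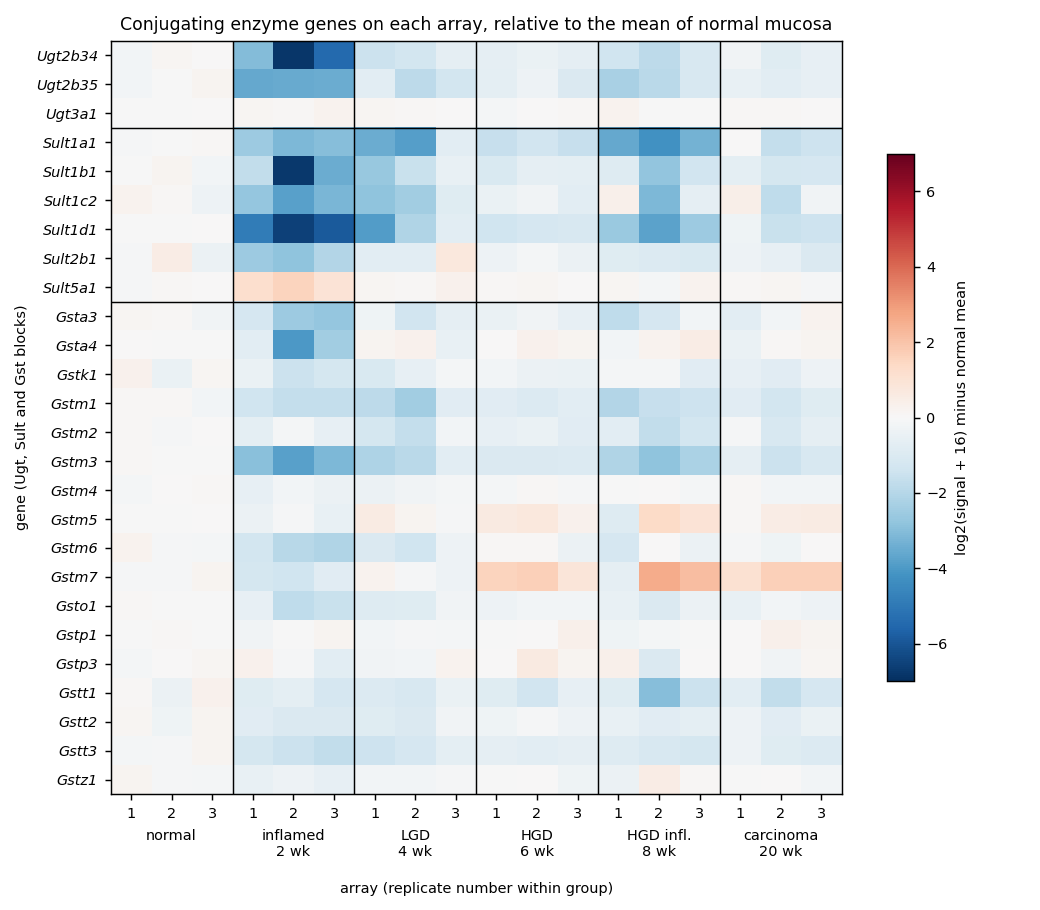
Log2(signal + 16) minus the mean of the 3 normal arrays for the 26 tested genes (rows, in Ugt, Sult and Gst blocks) on the 18 arrays (columns, by group and replicate number). Blue is lower and red higher than normal mucosa. The deepest blue lies in the inflamed arrays for Ugt2b34, Sult1b1 and Sult1d1, Sult5a1 is red there, Gstm7 is red on most arrays of weeks 6 to 20, and Gstp1 stays near white on all of them.

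Across the 6 groups, limma's moderated F test called 18 of the 26 tested members: 2 of 3 Ugt, all 6 Sult and 10 of 17 Gst. Of all genes tested, 45.3% were called. The remaining 17 members had no array of 18 above the table median of 56.6, a log2 level of 6.18, and were not tested. They are Ugt2a3, Ugt2b1, Ugt2b36, Ugt2b37, Ugt2b38, Ugt2b5, Ugt3a2, Sult1c1, Sult1e1, Sult2a2, Sult2a8, Sult3a1, Sult4a1, Sult6b1, Gsta2, Gsto2 and Gstt4. Ugt3a1 passed the filter on only 3 arrays, 1 each at weeks 2, 4 and 8, and kept between 5.94 and 6.29 on all 18. No member entered the tests through its normal arrays alone.

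In normal mucosa the probe sets with the highest signal in each family gave the following levels, which rank the probe sets and not the amounts of RNA. Ugt2b34, of a subfamily known for steroid and bile acid glucuronides, had a log2 level of 11.88 ± 0.16 (SD, n = 3), and Ugt2b35 one of 8.85 ± 0.19. Sult1a1, the phenol sulphotransferase, had 11.75 ± 0.09, Sult1b1, which sulphates thyroid hormone and phenols, 11.25 ± 0.20, and Sult1d1, which sulphates catecholamines and prostanoids, 10.97 ± 0.05. Among the glutathione transferases, Gstp1, a pi-class enzyme, had 12.90 ± 0.07, the omega-class Gsto1 12.45 ± 0.05 and the mu-class Gstm1 11.97 ± 0.16. The replicates of normal mucosa lay close together for each of these genes.

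At 2 weeks, 18 of the 26 tested members were lower in inflamed than in normal mucosa and 1 was higher. Over all genes 24.3% were called lower and 22.6% higher. By family, 2 of 3 Ugt, 5 of 6 Sult and 11 of 17 Gst fell, and the median change was -3.52, -3.06 and -1.06. The median of all 26 was -1.39, against 0.01 for all genes tested. Over all 43 members, the dim ones included, it was -0.34. By family it was then -0.008 (10 Ugt), -0.009 (13 Sult) and -0.92 (20 Gst). The order of the family medians, here and at later stages, depends on whether dim members, which have no measured course, are included. Among the 3 tested Ugt genes the median is the value of Ugt2b35. All 3 inflamed arrays lay below all 3 normal arrays for 22 members, against 30.8% of all genes.

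Sult1d1 had the largest change. Its log2 levels were 10.92, 10.96 and 11.02 in normal mucosa and 6.10, 4.45 and 5.08 in inflamed mucosa. The groups were far apart, and all 3 inflamed arrays lay below the table median of 6.18, where the array reads little signal. The change was -5.76 ± 0.62 (SE; limma adjusted p = 7.75e-06), and the other probe set of the gene gave -4.60. Sult1c2, Ugt2b35, Gstm6 and Gstm7 also had all 3 inflamed arrays below that median, so the size and the order of these changes depend on the dim end of the scale.

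Ugt2b34 read 11.71, 12.02 and 11.92 in normal mucosa and 8.82, 5.07 and 6.45 in inflamed mucosa, with replicate 2 lowest and no overlap. Its change was -5.10 ± 0.61 (adjusted p = 1.69e-05), and its other probe set gave -5.14. Sult1b1 followed the same order of arrays, with 11.25, 11.45 and 11.06 in normal mucosa and 9.55, 4.48 and 7.75 in inflamed mucosa, a change of -3.99 ± 0.90 (adjusted p = 0.00221). Without inflamed replicate 2, the array with the least epithelial signal, the changes of Sult1d1, Ugt2b34 and Sult1b1 were -5.38, -4.25 and -2.60 and each still passed.

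Ugt2b35 showed no such scatter across the inflamed replicates. It read 8.66, 8.85 and 9.04 in normal mucosa and 5.28, 5.30 and 5.39 in inflamed mucosa, all 3 inflamed arrays at one level. That level lies below the table median of 6.18, where differences between arrays are understated, so it does not show a different course. The change was -3.52 ± 0.28 (adjusted p = 8.51e-07). These 4 genes of the chromosome 5 run had the 4 largest measured changes among the 26 members.

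Of the other Sult genes, Sult1a1 went from 11.66, 11.75 and 11.84 to 9.22, 8.61 and 8.78, a fall of nearly one size in all 3 inflamed arrays (-2.88 ± 0.62, adjusted p = 0.00155). Sult1c2 (-3.24 ± 0.74) and Sult2b1 (-2.46 ± 0.34), which sulphates cholesterol and other hydroxysteroids, also fell. Sult5a1 was the one member that rose: it read 6.38, 6.52 and 6.46 in normal mucosa and 7.64, 8.03 and 7.43 in inflamed mucosa, with no overlap (1.25 ± 0.14, adjusted p = 9.99e-06). At week 4 it was back at 6.57, 6.53 and 6.77.

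The Gst genes spread from a large fall to none. Gstm3 went from 10.48, 10.37 and 10.39 to 7.49, 6.62 and 7.27 (-3.29 ± 0.33, adjusted p = 4.07e-06). That probe set may bind other transcripts, and the gene's other probe set, without such a suffix, gave -1.47 and passed in a fit of genes read by such probe sets. Gsta4, the alpha-class enzyme that conjugates the lipid aldehyde 4-hydroxynonenal, read 11.71, 11.68 and 11.67 in normal mucosa and 10.97, 7.64 and 9.26 in inflamed mucosa (-2.40 ± 0.55, adjusted p = 0.00237). As with Ugt2b34 and Sult1b1, the array with the least epithelial signal was lowest, and without it the change of Gsta4 was -1.57. Other Gst genes ran the other way: that array was the highest inflamed one for Gstm2 (9.72 against 9.19 and 9.30), Gstm4, Gstm5, Gstt1 and Gstz1. Gsta3 (-2.14 ± 0.43) and Gstm6 (-1.77 ± 0.30) fell as well.

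Gstm1 went from 12.06, 12.07 and 11.78 to 10.60, 10.32 and 10.32, again a fall of one size in the 3 inflamed arrays (-1.56 ± 0.30, adjusted p = 6.92e-04). Its other 3 probe sets gave changes of -0.72, -1.52 and -1.63. Gstt3, Gsto1, Gstk1, Gstt2, Gstz1 and Gstm4 fell, with changes from -1.48 to -0.39, of which Gstz1 lost its call in 4 of the 6 fits without 1 array and Gstm4 in 1 of them. Gstm7, Gstt1, Gstm2, Gstm5, Gstp3 and Gstp1 did not pass, with changes from -1.12 to -0.02. Gstp1 was the flattest: 12.84, 12.97 and 12.87 in normal mucosa and 12.68, 12.87 and 13.10 in inflamed mucosa (-0.02 ± 0.12, adjusted p = 0.929). Its log2 level stayed between 12.62 and 13.25 on all 18 arrays. The neighbouring Gstp2 is a close relative, and its share in this signal was not tested.

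**Figure D2:**
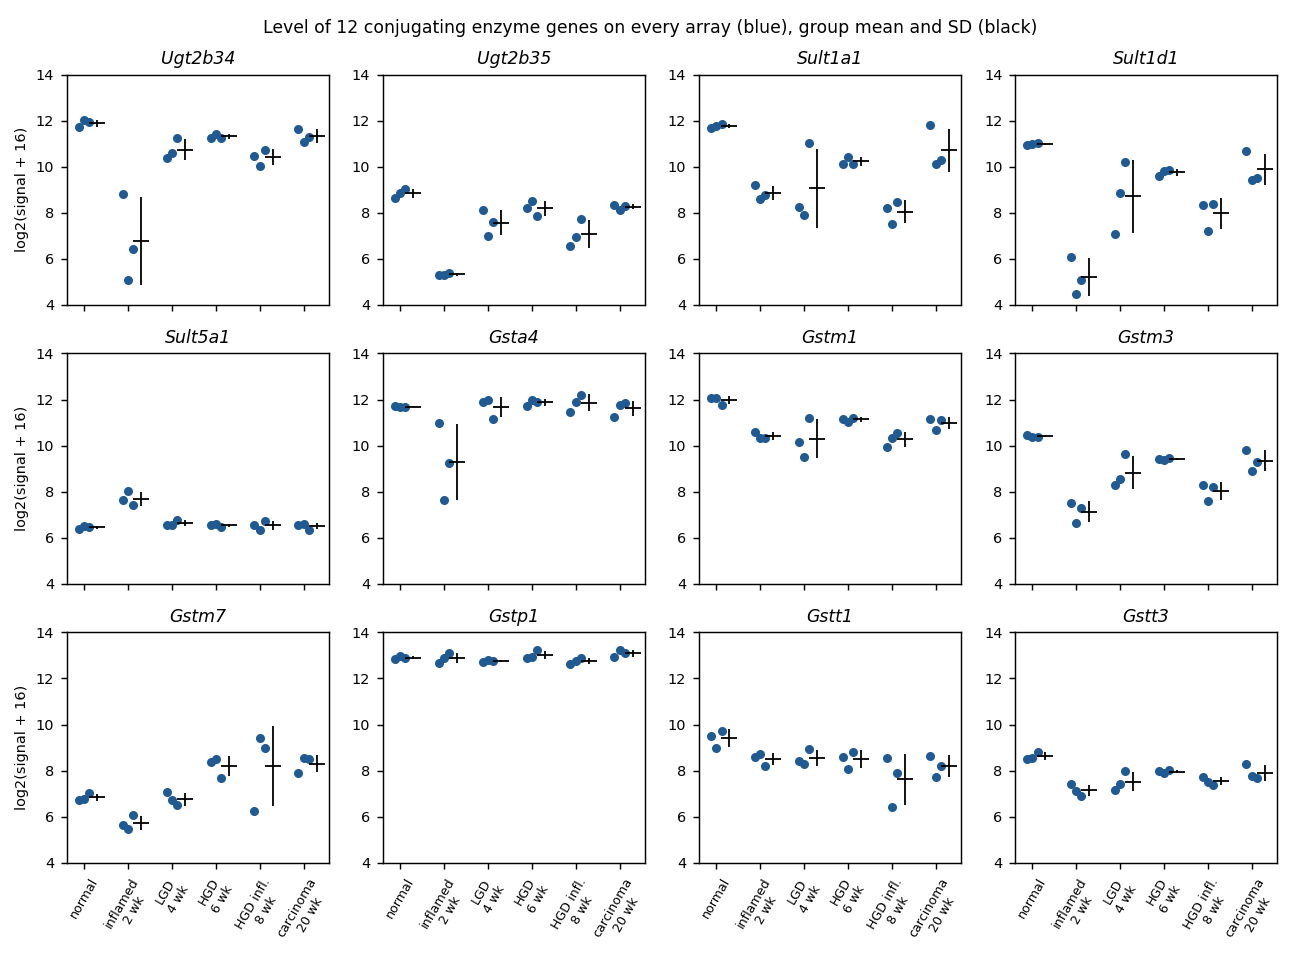
Log2(signal + 16) of 12 members on every array (blue points, in order of replicate number) with the group mean and SD (black), for the 6 groups. In inflamed mucosa Ugt2b34 and Gsta4 are scattered over several log2 units, while Ugt2b35 (there below the table median), Sult1a1 and Gstm1 drop to one level. Gstp1 is level across all groups.

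The markers of other cell types moved in the same comparison. General epithelial markers fell in 14 of 15 (median -3.07), mature colonocyte markers in 14 of 18 (-3.08) and goblet cell markers in 13 of 14 (-3.90). Leukocyte markers rose in 11 of 14 (median 2.00; S100a9, a neutrophil protein, went from 5.75 ± 0.69, under the table median, to 14.18 ± 0.48), fibroblast markers in 14 of 14 (1.09) and endothelial markers in 9 of 10 (1.45). The mean log2 level of the leukocyte markers ran from 8.29 to 8.64 in normal and from 10.85 to 11.38 in inflamed mucosa. Their part in the changes of the conjugating enzymes was not tested. Without inflamed replicate 2, 18 members were lower and 1 higher, and these were the same 19 genes. Of all genes, 40.2% were then called.

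Genes that supply and dispose of conjugates were read beside their enzymes, each list against the 24.3% of all genes that were lower and the 22.6% that were higher. Of 7 tested genes of PAPS supply and sulphate handling, 5 fell and none rose (median -1.69). These include the sulphate transporter Slc26a2 (-3.52 ± 0.56, adjusted p = 1.55e-04), the PAPS synthases Papss2 (-2.29) and Papss1 (-1.69), and Bpnt1 (-1.75), which removes the spent donor. Of 6 genes around UDP-glucuronate, 2 fell and 2 rose (median -0.45): the sugar nucleotide transporter Slc35a3 fell by 2.23 ± 0.22, whereas Gusb, the lysosomal glucuronidase that splits glucuronides, rose by 1.33 ± 0.17 (adjusted p = 3.11e-05). Ugdh, which makes UDP-glucuronate, did not pass (-0.59, adjusted p = 0.0506).

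Of 13 genes of glutathione supply and Nrf2 targets, 3 rose and 3 fell (median -0.05), shares near those over all genes. Hmox1, haem oxygenase 1, rose by 3.45 ± 0.26 (adjusted p = 5.86e-07), and Slc7a11, the cystine carrier, by 0.99. Glutathione synthetase, Gss (-1.82), and Gpx2 (-1.92), the glutathione peroxidase of gut epithelium, fell. Gclc and Gclm, the subunits of the enzyme that limits glutathione synthesis, had changes of 0.05 and -0.16 and did not pass. Of 9 microsomal and other glutathione transferases, 3 rose and 3 fell, with Mgst2 (-2.78), Mgst3 (-2.51) and Clic5 (-3.16) on the side of the falls and Gdap1 (1.47) on that of the rises.

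Of 8 efflux transporters 2 fell and 1 rose, where 24.3% of all genes fell and 22.6% rose, so the falls were near that share. Abcb1a (-3.47 ± 0.63) and Abcc3 (-1.75 ± 0.28), which exports glucuronides, fell, and Abcb1b rose by 0.87. Of 11 transcription factors that act on such genes or mark gut epithelium, 8 fell and 3 rose (median -1.73). Hnf4a (-3.95 ± 0.51), Cdx1 (-3.71 ± 0.50) and the vitamin D receptor Vdr (-3.26 ± 0.36) fell most, the pregnane X receptor Nr1i2 fell by 2.12, and Ahr, the aryl hydrocarbon receptor, rose by 0.97.

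The Ugt1a genes share their last exons and have no probe set of their own. The 3 probe sets that name 8 Ugt1a genes together lie outside the 43 members and were read in a fit over 25034 probe sets. Their changes at 2 weeks were -1.19, -1.04 and -1.14 (adjusted p = 0.0183, 0.0341 and 0.0448), where 42.2% of probe sets were called. The second of these read 12.78, 12.92 and 12.73 in normal mucosa and 11.84, 11.72 and 11.73 in inflamed mucosa. The arrays of each group lay close together, and the groups did not overlap. The probe set shared by Gsta1, Gsta2 and Gm3776 scattered widely, with 9.45, 4.75 and 7.06 in inflamed mucosa against 8.77, 9.98 and 8.33, and did not pass (-1.94, adjusted p = 0.0802).

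**Figure D3:**
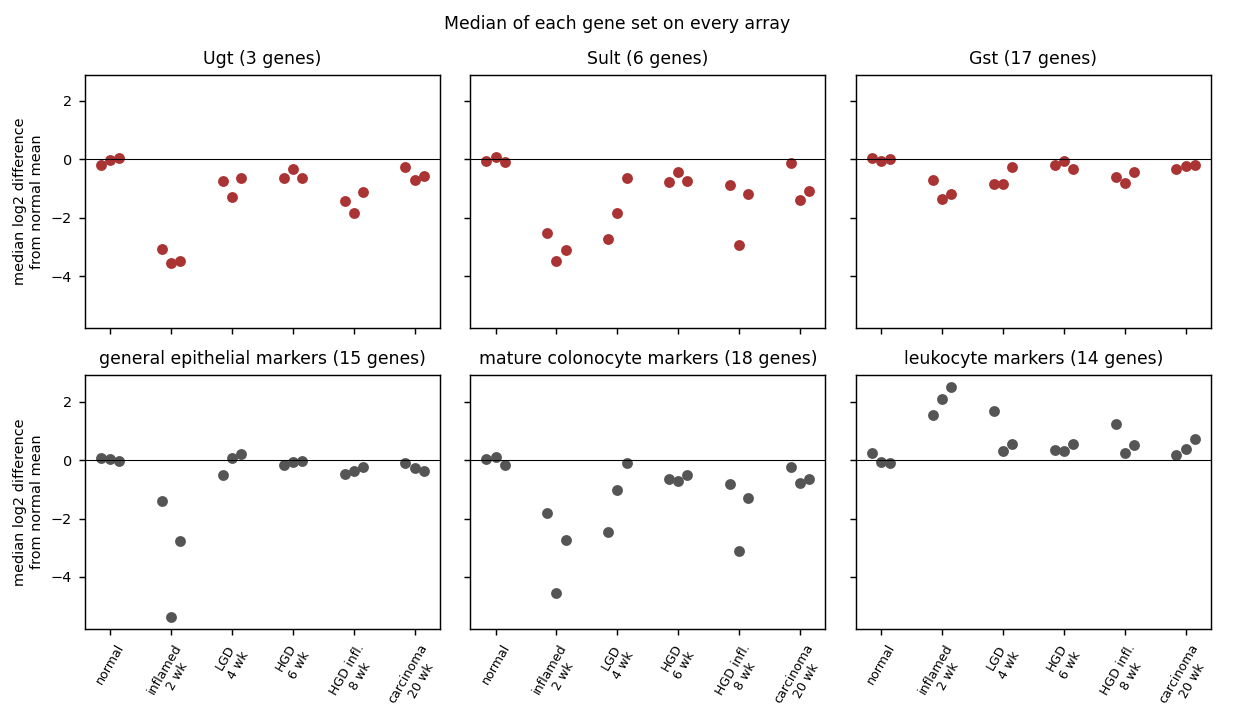
Median difference from the normal mean (log2) of the tested Ugt, Sult and Gst genes (red, upper row) and of 3 marker lists (grey, lower row) on every array. Ugt medians are lowest on the inflamed arrays. Sult medians are -2.52 to -3.47 there, and LGD replicate 1 (-2.73) and week 8 replicate 2 (-2.94) fall in the same range. At weeks 4 and 8 the Sult medians and the colonocyte medians are lowest on the same arrays, LGD replicate 1 and week 8 replicate 2, while general epithelial markers lie within about 0.5 of normal.

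Between week 2 and week 4, from inflamed mucosa to LGD, 9 of the 26 members rose and 1 fell, where 19.3% of all genes rose and 17% fell. The rises were in 2 Ugt, 3 Sult and 4 Gst genes. Ugt2b34 came back to 10.37, 10.61 and 11.24, above all inflamed arrays (3.96 ± 0.61, adjusted p = 2.32e-04), and Ugt2b35 to between 7.001 and 8.10 (2.24 ± 0.28, adjusted p = 4.81e-05). Sult1d1 reached 7.07, 8.86 and 10.22, with replicate 1 lowest but above the inflamed arrays (3.51 ± 0.62, adjusted p = 6.21e-04). Sult1b1 rose by 2.41, Sult2b1 by 2.22, Gsta4 by 2.38, Gstm3 by 1.70, Gsta3 by 1.39 and Gstm6 by 0.86, and Sult5a1 fell by 1.07. The other probe set of Gstm3 gave 0.47 and did not pass (adjusted p = 0.0672).

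Sult1a1 and Gstm1 were among the members that did not pass. Sult1a1 read 8.26, 7.90 and 11.01 in LGD, so replicates 1 and 2 lay below every inflamed array and replicate 3 far above them (0.19 ± 0.62 from week 2, adjusted p = 0.838). Gstm1 read 10.16, 9.53 and 11.19 (-0.12 ± 0.30, adjusted p = 0.784), with replicates 1 and 2 again below every inflamed array; 2 of its other probe sets gave 0.13 and 0.20. Over the same interval 14 of 15 general epithelial markers, 7 of 18 colonocyte markers and 4 of 7 genes of PAPS supply rose. Without inflamed replicate 2 or without inflamed replicate 3, 6 members rose and 1 fell, where 28.4% and 28% of all genes were called. Sult1b1 (1.02 and 2.66, adjusted p = 0.237 and 0.0722), Gsta3 (1.18 and 1.11, adjusted p = 0.0817 and 0.0927) and Gstm6 (0.78 and 0.69, adjusted p = 0.110 and 0.147) then no longer passed. Gsta3 and Gstm6 also did not pass without LGD replicate 1 or without LGD replicate 3. Without LGD replicate 2, the array with shorter RNA, 8 rose and 1 fell, where 27.7% of all genes were called. Sult1b1 again did not pass.

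Against normal mucosa, 7 members were lower in LGD and none was higher, where 3.08% of all genes were lower and 2.61% higher. They were Ugt2b35 among 3 Ugt, Sult1a1 and Sult1d1 among 6 Sult, and Gstm1, Gstm3, Gstt3 and Gstt2 among 17 Gst, and the family medians were -1.14, -1.80 and -0.65 (all genes 0.02). Gstm1 had the smallest adjusted p (-1.68 ± 0.30, adjusted p = 0.0103). Sult1a1 had the largest change (-2.69 ± 0.62, adjusted p = 0.0262) and an SD of 1.70 in LGD, since replicate 3 read 11.01, and Sult1d1 spread nearly as far (SD 1.58). Gstt3, a theta-class enzyme, read 7.17, 7.43 and 7.97 against 8.51, 8.53 and 8.82 (-1.10 ± 0.20, adjusted p = 0.0116). Ugt2b34 (-1.14, adjusted p = 0.268) and Sult1b1 (-1.58, adjusted p = 0.299) did not pass although none of their LGD arrays reached a normal one.

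These calls in LGD rest on few arrays. Without LGD replicate 2, 2 members passed, Gstm1 (-1.29, adjusted p = 0.0370) and Gstt3 (-1.05, adjusted p = 0.0481), with 1.13% of all genes called. Without LGD replicate 1, 2 passed, Ugt2b35 and Gstm1, with 0.878% of all genes. Without LGD replicate 3, 11 passed, the same 7 and Gstm2, Gstm6, Gsto1 and Sult1c2, but the share over all genes was then 13.9%, against 5.69% with all arrays. In a fit of only the 6 arrays compared none passed, with 0.388% of all genes called. The level of general epithelial markers was near normal (median -0.09, 0 of 15 called), that of colonocyte markers had a median of -1.01 (1 of 18 called), and leukocyte markers rose in 5 of 14. Their part was not tested.

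At 6 weeks, in HGD, no member passed against normal mucosa, where 1.14% of all genes were called. At an unadjusted p under 0.05 there were 7 of 26 (6 lower and 1 higher), against 19.6% of all genes, and the family medians were -0.57, -0.64 and -0.23. The arrays of this group lay close together. Sult1a1 read 10.12, 10.43 and 10.13 (-1.52 ± 0.62, adjusted p = 0.196), Gstm3 9.41, 9.38 and 9.46 (-0.99 ± 0.33, adjusted p = 0.125) and Sult1d1 9.59, 9.81 and 9.85, and none of these 9 values reached a normal array.

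The call depends on whose spread is used. Fitted on only the 6 arrays of normal mucosa and HGD at 6 weeks, 12 members passed, 10 lower and 2 higher, where 12.7% of all genes were called. The lower ones were Ugt2b34, Ugt2b35, Sult1a1, Sult1b1, Sult1d1, Gstm1, Gstm2, Gstm3, Gstt1 and Gstt3, and the higher ones Gstm5 and Gstm7. Sult1a1 had an adjusted p of 2.12e-04 in that fit. General epithelial markers had a median of -0.09 and colonocyte markers one of -0.59 at this stage.

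At 8 weeks, in HGD with active inflammation, 9 members were lower than in normal mucosa and none was higher, where 6.42% of all genes were lower and 4.84% higher. They were Ugt2b35 among 3 Ugt, Sult1a1 and Sult1d1 among 6 Sult, and Gstm1, Gstm2, Gstm3, Gstt1, Gstt2 and Gstt3 among 17 Gst. The family medians were -1.46, -1.40 and -0.53 (all genes 0.03). Sult1a1 read 8.19, 7.50 and 8.45, lower than on any array of inflamed mucosa, and its change was -3.70 ± 0.62 (adjusted p = 0.00553). Gstm3 read 8.29, 7.57 and 8.21 (-2.39 ± 0.33, adjusted p = 0.00210), and its other probe set gave -1.39.

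Ugt2b35 read 6.56, 6.94 and 7.75 (-1.77 ± 0.28, adjusted p = 0.00452) and Gstm1 9.92, 10.34 and 10.54 (-1.70 ± 0.30, adjusted p = 0.00641). No array of these genes overlapped normal mucosa. Sult1d1 fell by 2.98 ± 0.62. Gstt1, a theta-class enzyme, read 8.54, 6.40 and 7.90, with replicate 2 far below the others (-1.79 ± 0.42, adjusted p = 0.0206). Without that replicate 6 members passed, where 4.29% of all genes were called. Gstt1 (-1.19, adjusted p = 0.0518), Gstm2 (-1.02, adjusted p = 0.108) and Gstt2 (-0.60, adjusted p = 0.106) no longer did. These 3 were also lost without normal replicate 1 or without normal replicate 3. Gstm2 was lost without normal replicate 2 as well (adjusted p = 0.0923). Without week 8 replicate 3, Gstm2 and Gstt2 were lost (adjusted p = 0.0792 and 0.0875).

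Gsta4, which fell at week 2, read 11.47, 11.91 and 12.21 at week 8, around the normal levels (0.18 ± 0.55, adjusted p = 0.857). Gstk1, Gsta3, Gsto1, Sult1b1 and Ugt2b34 did not pass at week 8. The markers at this stage were as follows: of 15 general epithelial markers 1 rose and none fell (median -0.38), of 18 colonocyte markers 4 fell (median -1.61), of 14 goblet cell markers 2 fell (median -0.74), of 14 fibroblast markers 1 fell (median -0.09), of 14 leukocyte markers 3 rose (median 0.49), of 10 endothelial markers none passed (median 0.13) and of 11 smooth muscle markers 5 fell (median -1.29). The mean log2 level of the colonocyte markers ran from 7.74 to 9.56 at week 8 and from 10.27 to 10.78 in normal mucosa, with replicate 2 lowest. Among the 26 members replicate 2 was lowest for 12 (such as Sult1a1, Sult1d1, Gstm3 and Gstt1), replicate 1 for 9 (such as Ugt2b35, Gstm1, Gstm5 and Gstm7) and replicate 3 for 5. The part of these markers was not tested.

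The shared Ugt1a probe sets had changes of -1.98, -1.83 and -2.17 (adjusted p = 0.00890, 0.0108 and 0.0103), where 10.9% of probe sets were called. None of the 3 passed at weeks 4, 6 and 20. The second at week 8 read 11.71, 9.94 and 11.27, with replicate 2 lowest. Of the 6 genes around UDP-glucuronate, Ugdh fell by 1.14 ± 0.23 (adjusted p = 0.0110), Slc35a3 fell by 0.79, and Gusb rose by 0.99 ± 0.17 (adjusted p = 0.00641). Of the 7 PAPS genes, Slc26a2 fell (-2.47) and the synthases Papss1 (-0.61) and Papss2 (-0.36) did not pass. Of the 8 efflux transporters Abcb1a (-2.52) and Abcc3 (-1.13) fell, as did, of the 11 transcription factors, Vdr (-2.22), Nr1i2 (-1.08) and Ppara (-0.77). None of the 13 genes of glutathione supply and Nrf2 targets passed.

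In carcinoma at 20 weeks no member passed against normal mucosa, where 0.901% of all genes were called. At an unadjusted p under 0.05 there were 6 of 26 (5 lower and 1 higher), all of them Gst genes, against 18.5% of all genes. Family medians were -0.55, -0.83 and -0.24. Gstt3 read 8.29, 7.75 and 7.66 (-0.72 ± 0.20, adjusted p = 0.0931), and Gstm1 11.17, 10.66 and 11.11 (-0.99 ± 0.30, adjusted p = 0.113). Both groups of 3 lay below all normal arrays. Without carcinoma replicate 1, Gstt3 passed (-0.92, adjusted p = 0.0381). Sult1a1 read 11.80, 10.10 and 10.27, with replicate 1 at the normal level and the others below it (-1.03, adjusted p = 0.398).

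Fitted on only the 6 arrays of carcinoma and normal mucosa, 4 members passed, where 4.11% of all genes were called: Sult1b1, Gstm1 and Gstm3 were lower and Gstm7 higher. Ppara, a fatty acid sensor, was the one called gene among the 11 transcription factors. None of the genes of PAPS supply, UDP-glucuronate supply, efflux or glutathione supply passed at this stage.

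Among the later stages no member passed in any comparison, and 0% of all genes were called between HGD at week 6 and LGD, between week 8 and week 6, between carcinoma and week 8 and between carcinoma and week 6. At an unadjusted p under 0.05 the members numbered 7, 7, 6 and 0, against 6.99%, 3.28%, 11% and 4.5% of all genes. The 7 between LGD and week 6 were all higher at week 6, and the 7 between week 6 and week 8 all lower at week 8. The 6 between week 8 and carcinoma were all higher in carcinoma. Both comparisons of carcinoma share its 3 arrays, entered with the same sign. In order of time, the steps run from LGD to week 6, to week 8 and to carcinoma. Each step shares 3 arrays with the next, entered with opposite sign, so opposite directions in a row are not independent. The changes of Gstm3 over the last pair of steps were -1.39 ± 0.33 and 1.31 ± 0.33 (adjusted p = 0.999 and 0.243). Those of Sult1a1 were -2.18 ± 0.62 and 2.68 ± 0.62 (adjusted p = 0.999 and 0.224). Without LGD replicate 3, Sult1a1 (2.15, adjusted p = 0.0401) and Gstm1 (1.29, adjusted p = 0.0341) were higher at week 6 than in LGD.

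Gstm7 and its neighbour Gstm5, both mu-class genes, read above normal mucosa at the later stages. Gstm7 read 6.73, 6.77 and 7.01 in normal mucosa, 5.63, 5.47 and 6.06 at week 2 and 7.06, 6.73 and 6.49 at week 4. From week 6 it read higher, with 8.38, 8.50 and 7.70 at week 6, 6.23, 9.42 and 8.98 at week 8 and 7.88, 8.53 and 8.50 in carcinoma. All arrays of week 6 and of carcinoma lay above all normal arrays, and at week 8 replicate 1 lay below them. Gstm5 read 10.76, 10.73 and 10.80 in normal mucosa, 11.36, 11.48 and 11.06 at week 6, 9.86, 12.10 and 11.74 at week 8 and 10.83, 11.30 and 11.31 in carcinoma, with the same array low at week 8. Its changes from normal mucosa at these stages were 0.54, 0.47 and 0.39, each ± 0.41, and did not pass.

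The changes of Gstm7 from normal mucosa were 1.36 ± 0.57, 1.37 ± 0.57 and 1.47 ± 0.57 at weeks 6, 8 and 20 and did not pass (adjusted p = 0.206, 0.121 and 0.194). Without week 8 replicate 1, Gstm7 (2.37, adjusted p = 5.29e-04) and Gstm5 (1.16, adjusted p = 0.00388) passed as higher at week 8. Comparisons with inflamed mucosa were added after these values were seen, so their adjusted p-values are not independent of that choice. In them Gstm7 was higher by 2.47 ± 0.57 at week 6 and by 2.58 ± 0.57 in carcinoma (adjusted p = 0.00286 and 0.00232). Of all genes, 44.7% and 42.4% were called. The other probe set of Gstm7 showed no such course, with changes of -0.03, 0.01, -0.01, -0.10 and 0.06 from normal mucosa at weeks 2, 4, 6, 8 and 20. Which of the 2 probe sets reads the transcript was not tested.

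**Figure D4:**
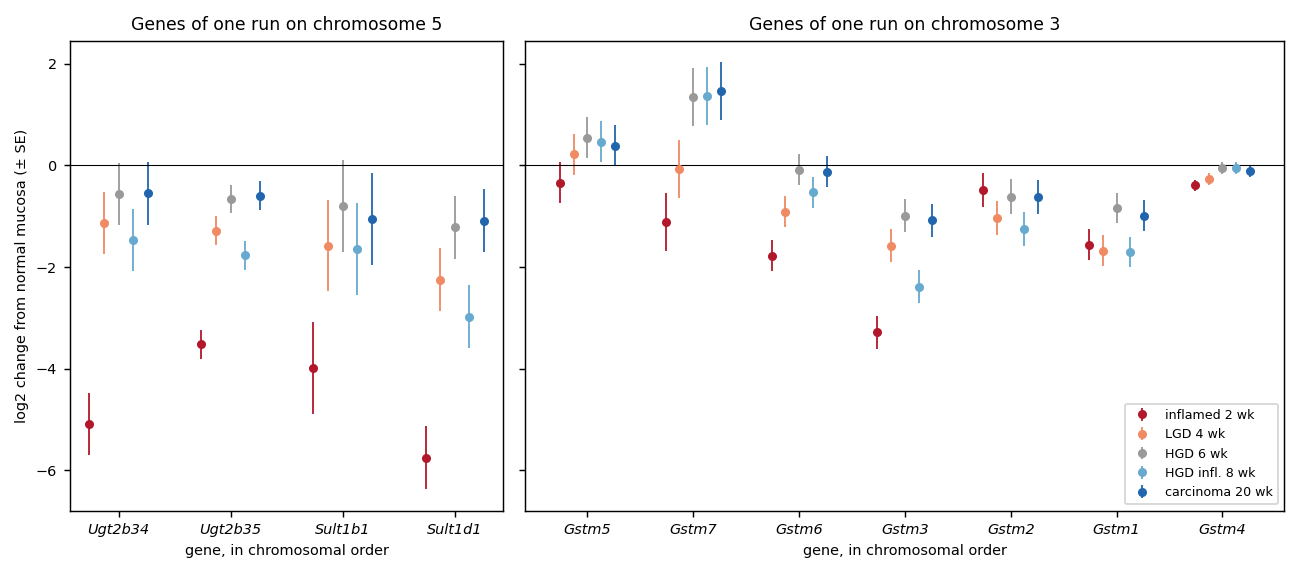
Log2 change from normal mucosa with its SE for the tested genes of the chromosome 5 run (left) and of the chromosome 3 run (right), in chromosomal order, at the 5 stages (colours). On the left all genes are lowest at week 2. On the right, Gstm3 and Gstm1 lie below 0 at every stage, Gstm7 lies above 0 from week 6 on, and Gstm4 keeps within 0.39 of 0, at -0.39 at week 2.

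The values of neighbours are given side by side. In the chromosome 3 run the week 2 changes ran from -3.29 (Gstm3) through -1.77 (Gstm6) and -1.56 (Gstm1) to -0.34 (Gstm5), and at week 8 from -2.39 (Gstm3) to 1.37 (Gstm7). In the theta-class run on chromosome 10, Gstt3 fell at weeks 2, 4 and 8 (-1.48, -1.10 and -1.09), Gstt2 at the same stages by less (-0.94, -0.69 and -0.66), and Gstt1 at week 8. The changes of Gstt1 at weeks 2, 4 and 6 (-0.90, -0.86 and -0.92) did not pass although all 3 arrays lay below all normal ones. Of the 17 alternative fits described below, the call at week 4 was lost in 7 for Gstt2 and 2 for Gstt3, and that of Gstt1 at week 8 in 4. In the chromosome 5 run Ugt2b35 and Sult1d1 passed as lower than normal at weeks 2, 4 and 8. At week 4 Sult1d1 passed narrowly (limma adjusted p = 0.0477). Its call there was lost in 11 of the 17 alternative fits, and that of Ugt2b35 in 4. Ugt2b34 and Sult1b1 passed at week 2, and their changes at week 8, -1.46 and -1.65, did not pass although all 3 arrays lay below all normal ones. Whether these courses differ between neighbours was not tested.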

How the data were processed

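The authors deposited 1 intensity per probe set and array, on a linear scale, for 18 arrays. The submitters' processing notes name MAS5, with version, role and scaling not given in the sources used here. Array medians ran from 55.7 to 57.8, so no further scaling was applied. Of 45101 deposited probe sets, 64 are controls, and the platform annotation pairs 34945 with 1 gene, 932 with several and 9160 with none.

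Values were analysed as log2(signal + 16), a scale that understates fold changes near background. The filter kept probe sets above the table median on 3 or more of 18 arrays, and the probe set with the highest mean stood for a gene. All 18 arrays entered 1 limma fit (limma 3.58.1, R 4.3.3; 12 residual degrees of freedom, intensity trend) with 10 comparisons and a moderated F test. P-values are 2-sided and Benjamini-Hochberg adjusted over 12877 genes; threshold 0.05. The fit was tested on simulated data.

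Members and gene lists were chosen with earlier results of these data known. Named genes are, per family and comparison, up to 4 (between stages 3) of the passing members by size of change, else the smallest p, the brightest 3 per family in normal mucosa, members with opposed probe sets, and up to 3 of each list; other members are named to account for all 26, and Gstm5 and Gstm7 were singled out after their values were seen. Replicate numbers did not pair arrays (median correlation of same-numbered arrays -0.001). Promoter windows come from RefSeq, GRCm38.p6. Alternatives covered the pseudocount, filter, normalization, probe set choice, variance model, array weights, replicate block and each array left out.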

Additional observations from a re-analysis of the deposited data

Results flagged for a closer look

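Some members lay apart from normal mucosa in opposite directions at 2 stages, with all 3 arrays on each side. Each difference was then compared directly in the same limma fit, in comparisons added after the values were seen. The choice already required the arrays of the 2 stages to lie apart, so these adjusted p-values are not independent evidence of a difference. Gsta4 was higher at week 6 than at week 2 by 2.58 ± 0.55 (adjusted p = 0.00161), with changes from normal mucosa of 0.19 and -2.40. Its change from normal mucosa at week 6 did not pass (adjusted p = 0.895). Gstm7 was higher than at week 2 by 2.47 at week 6 (adjusted p = 0.00286) and by 2.58 in carcinoma (adjusted p = 0.00232). The other probe set of Gstm7 had changes from normal mucosa of -0.03, -0.01 and 0.06 at weeks 2, 6 and 20. Gstm5, the neighbour of Gstm7, differed from week 2 by 0.89 at week 6 (adjusted p = 0.0892) and by 0.73 in carcinoma (adjusted p = 0.163), and neither difference passed. Between 42.4% and 44.7% of all genes passed in these comparisons.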

How the results depend on the processing

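With 3 arrays per group, calls after week 2 are the least stable. The stability of calls was counted for the passing members with the largest changes, up to 4 per family, or 3 between stages. Under every alternative run for them, 10 of 10 kept their call at week 2, 5 of 7 at week 8, 0 of 7 in LGD and 4 of 8 between LGD and week 2. The alternatives numbered 17, or 16 for Sult1a1 and Gstm6, which have no probe set without an s, x or a suffix. Members outside this count also lost calls, among them Gstz1 and Gstm4 at week 2, Gstt2 at week 8 and Gstm6 between LGD and week 2. Leaving out 1 array at a time gave 17 to 19 members called at week 2. It gave 17 without inflamed replicate 1 (45% of all genes) and 19 without normal replicate 3 (42.2%) or inflamed replicate 2 (40.2%). In LGD it gave 1 (without normal replicate 2, 0.544%) to 11 (without LGD replicate 3, 13.9%). It gave 3 there without normal replicate 1 (1.93%) and 2 without normal replicate 3 (1.35%). At week 6 it gave 0 each time, at week 8 from 6 (4.29% to 4.71%) to 11 (17.1%), and in carcinoma 0 to 1 (2.23%). Between LGD and week 2 it gave 7 (28% and 28.4%) to 11 (34.9%), and between week 6 and LGD 0 to 2 (0.427%). By the F test it gave 13 to 21, against 18 with no array left out, where 45.3% of all genes were called. For the F test with 1 array left out the share over all genes was not counted, so that range cannot be set against it. Fitting only the 6 arrays compared gave 0 in LGD (0.388% of all genes), 12 at week 6 (12.7%) and 4 in carcinoma (4.11%). The spread then comes from those 2 groups alone. Array weights gave 11 in LGD (19.1% of all genes called), 8 at week 6 (20.2%), 18 at week 8 (51.4%) and 10 in carcinoma (22.6%), 10 between week 8 and week 6 (7.46%) and 10 between carcinoma and week 8 (14.1%), but the estimation did not converge and gave week 8 replicate 3 a weight of 136, so these counts rest on that array. The one change of sign was Ugt3a1 between carcinoma and week 6, which was 0.06 and ranged from -0.0047 (without HGD at 6 weeks replicate 1) to 0.10 when arrays were left out, never passing. With the replicate number as a block, 20 members were called at week 2 (45.4% of all genes) and 6 in LGD (4.26%). There were 9 at week 8 (8.61%) and 9 between LGD and week 2 (34.9%). No setting moved the median of all genes by over 0.1. Dim probe sets, among them 17 members, have no measured course.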
